A study of Homo sapiens with 15 samples.

Results

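Hemidesmosomes are the junctions that rivet the basal cell of a stratified epithelium to its basement membrane, and laminin-332 is the extracellular protein they hold on to. Integrin α6β4 binds laminin-332 outside the cell and plectin inside it, the plakin BP230 and the transmembrane collagen XVII complete the junction and tie it to keratin filaments, and integrin α3β1 binds the same laminin at focal contacts. The tetraspanin CD151 sits beside both integrins in the membrane. In oral mucosa these proteins anchor basal keratinocytes, and in squamous carcinoma laminin-332 and its receptors are well known at the invading edge.

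The RNA of 9 such genes was followed: the laminin chains LAMA3 and LAMB3, the integrin subunits ITGA6, ITGB4 and ITGA3, the tetraspanin CD151, and the junction proteins COL17A1, DST and PLEC. They were chosen by gene symbol alone, and all 9 were among the 12995 genes that the authors retained. RNA came from 15 libraries in 5 groups of 3, made by 3′ mRNA sequencing (QuantSeq FWD), in which a read starts near the poly(A) tail. OKF6 is a normal oral epithelial line labelled wild type. SCC15 and SCC25 are oral cancer lines that were transduced with lentivirus with Cas9 and with a guide for YBX1, a DNA- and RNA-binding protein, under doxycycline control, and sorted for both fluorescent reporters. The –YBX1 cells of each line, labelled YBX1 knockout, received doxycycline at 1 µg/ml and the +YBX1 cells, labelled wild type, received none, so the loss of YBX1 cannot be told apart from doxycycline itself. The time is given as 3 days for every group. The sources used here do not say that OKF6 carried the construct. SCC15 was grown in DMEM with serum and the other lines in serum-free keratinocyte medium, so line and medium cannot be told apart wherever SCC15 is compared. Each group is 1 cell line, and the sources used here do not say whether the 3 libraries of a group were separate cultures, so p-values measure the spread between these libraries alone.

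Reads counted on genes lay between 4075290 and 6118501 per library, and values are log2 CPM, that is log2 read counts scaled to a common library size. At this depth 3 reads correspond to at most 0.677 CPM. Values below 0 thus rest on a handful of reads. Replicates correlated least in OKF6, at 0.895 to 0.915 against 0.937 to 0.979 in the other groups, and by a chi-square of the counts OKF6 replicate 1 stood apart from replicates 2 and 3 (79.3 to 80.8 per degree of freedom, against 26.1 between those). The guide target YBX1 was lower in every –YBX1 library than in every +YBX1 library of its line, with a log2 change of -2.01 in SCC25 (adjusted p = 0.290, limma) and of -2.15 in SCC15 (adjusted p = 0.326). Epithelial markers (9 of 9 listed) summed to 14100 to 25954 CPM in OKF6, 10113 to 16562 in SCC25 +YBX1 and 153 to 181 in SCC15 +YBX1. Mesenchymal markers (8 of 9 listed) summed to 809 to 1939, 2459 to 3238 and 450 to 489 CPM in the same groups, with 0 reads of CDH2 in OKF6. Of the 8, 4 were higher in SCC15 +YBX1 than in SCC25 +YBX1 (CDH2 by 2.05, ZEB1 by 3.55, ZEB2 by 3.18 and SPARC by 6.28 on the log2 scale) and 3 lower (VIM, FN1 and COL1A1), and FN1 and VIM made up most of the sum in SCC25, at 10.91 and 9.67 log2 CPM. The part of either sum in the results below was not tested. In bulk RNA, fewer cells with a transcript and less of it per cell cannot be told apart.

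The promoters of LAMA3, LAMB3 and COL17A1 are shown first, because among the 9 genes their RNA differed most between SCC15 and SCC25. RefSeq windows (GRCh38.p14) were at hand for 5 of the 9 genes, at 10 starts. Each sequence gives the 250 bases before a transcription start, 5′ to 3′ on the strand of the gene, with capitals for the AP-1 motif TGANTCA and for CCAAT read on either strand.
LAMA3, chr18:23872770-23873019, forward strand: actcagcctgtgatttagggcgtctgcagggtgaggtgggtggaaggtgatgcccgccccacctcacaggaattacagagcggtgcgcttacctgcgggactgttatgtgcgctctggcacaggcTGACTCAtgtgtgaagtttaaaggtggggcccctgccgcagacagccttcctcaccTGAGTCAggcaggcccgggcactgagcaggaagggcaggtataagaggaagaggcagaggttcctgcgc
LAMB3, chr1:209652426-209652675, reverse strand: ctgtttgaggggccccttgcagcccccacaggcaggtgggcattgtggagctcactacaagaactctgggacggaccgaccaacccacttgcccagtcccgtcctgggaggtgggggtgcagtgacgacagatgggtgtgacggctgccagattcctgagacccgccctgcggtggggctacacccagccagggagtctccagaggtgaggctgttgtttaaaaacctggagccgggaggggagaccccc
COL17A1, chr10:104085881-104086130, reverse strand: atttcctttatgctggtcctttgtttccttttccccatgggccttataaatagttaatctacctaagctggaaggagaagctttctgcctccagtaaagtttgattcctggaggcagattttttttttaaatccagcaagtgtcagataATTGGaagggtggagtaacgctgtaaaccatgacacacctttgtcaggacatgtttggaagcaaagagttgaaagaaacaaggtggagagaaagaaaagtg
The LAMA3 window lies inside the gene, 183567 bases past its first annotated start, before the start of the shorter transcript. It held AP-1 matches at 125 and 69 bases before that start, and each overlapped a match to the E-box motif CANNTG. The COL17A1 window held 1 reversed CCAAT, 101 bases before the start, and the LAMB3 window held neither motif. Another LAMB3 start inside the gene had 1 AP-1 match at 67 bases and 1 reversed CCAAT at 122 bases. Among all 10 windows of the 5 genes, 2 held the AP-1 motif, 3 CCAAT, 10 an E-box, 2 TATAAA and 0 the grainyhead motif AACNNGTT, each read on both strands. Of 14799 windows of all tested genes, 4.56% held the AP-1 motif, 32.8% CCAAT, 54.2% an E-box, 6.07% TATAAA and 2.32% AACNNGTT. Some windows of 1 gene overlap, so they are not independent. These matches describe letters in a window and no measurement here bears on binding.

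**Figure D1:**
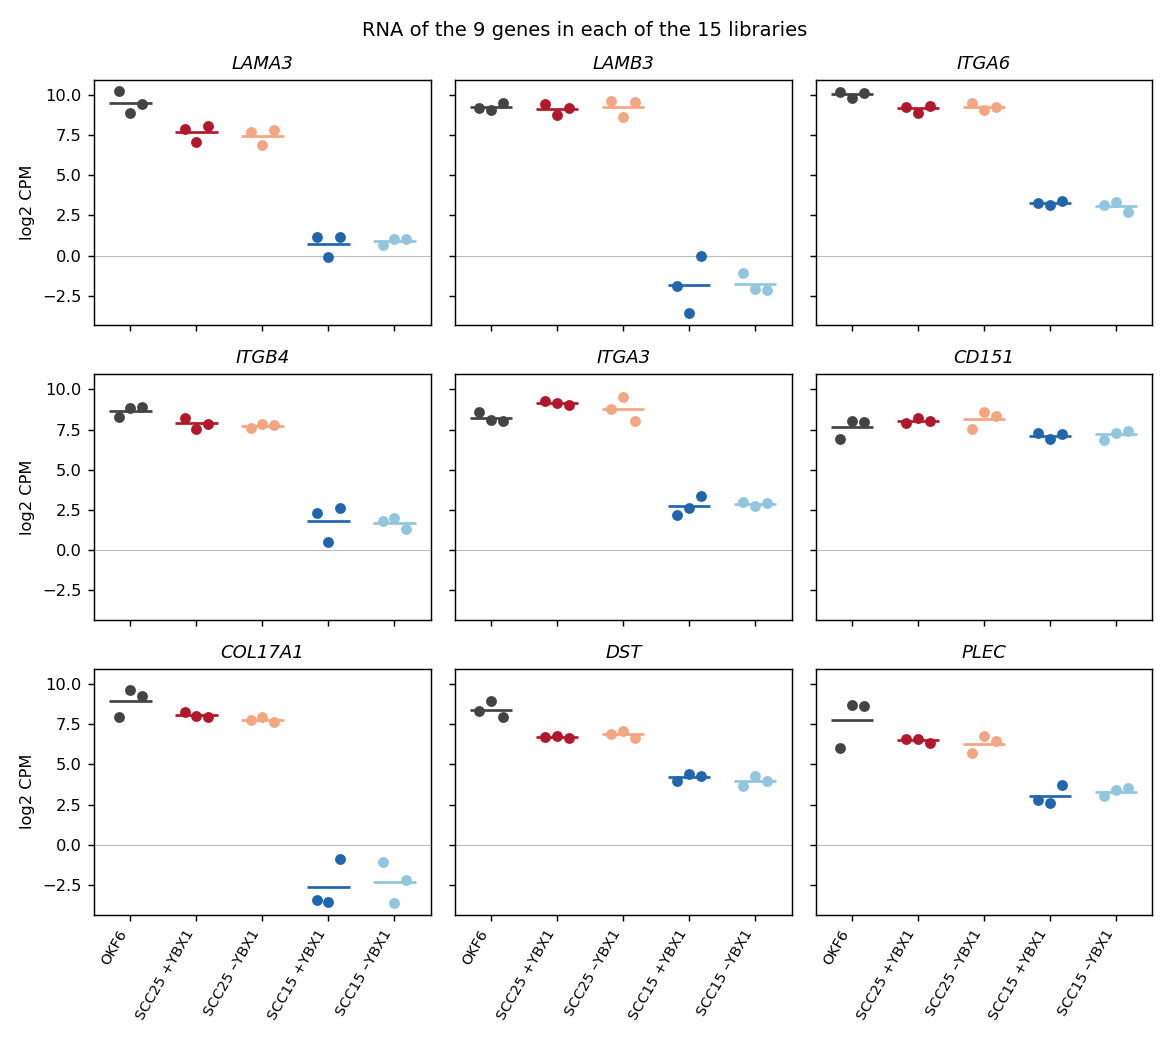
Log2 CPM (y axis) of each gene in the 3 libraries of each group (x axis), with replicates 1 to 3 from left to right and the group mean as a bar. All SCC15 points lie below all OKF6 and SCC25 points except for CD151, for which SCC15 overlaps OKF6.

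Laminin-332 is a secreted trimer, and the genes of its α3 and β3 chains had abundant RNA in OKF6 and SCC25 and almost none in SCC15. LAMA3, the gene of the α3 chain, extends from 23689453 to 23956222 on the forward strand of chromosome 18 (hg38). OKF6 replicates 1 to 3 had log2 CPM of 10.24, 8.83 and 9.44 and SCC25 +YBX1 7.88, 7.05 and 8.03. The SCC15 +YBX1 libraries had 1.19, -0.11 and 1.16. The groups did not overlap, with OKF6 highest, SCC25 next and SCC15 lowest. LAMA3 changed by -6.91 on the log2 scale from SCC25 +YBX1 to SCC15 +YBX1 (adjusted p = 7.12e-07, limma, standard error 0.44), and from OKF6 to SCC15 by -8.76 (adjusted p = 1.56e-07). From OKF6 to SCC25 it changed by -1.85 (standard error 0.44, adjusted p = 0.00931). The 31 LAMA3 reads of SCC15 +YBX1 against 3181 in SCC25 +YBX1 give a ratio of 121 after scaling to library size, as in all ratios of reads here (exact 95% interval 85.0 to 178, counting error only).

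LAMB3, the gene of the β3 chain, lies on chromosome 1 from 209614870 to 209652425, on the reverse strand. Its log2 CPM was 9.20, 9.04 and 9.50 in OKF6 and 9.44, 8.71 and 9.20 in SCC25 +YBX1, ranges that overlap. The difference of SCC25 from OKF6 was -0.13 (standard error 0.67, adjusted p = 0.911, limma). That standard error shares its spread with SCC15 +YBX1, where the SD was 1.79, against 0.24 in OKF6 and 0.37 in SCC25 +YBX1. SCC15 +YBX1 had 7 LAMB3 reads in all, namely 1, 0 and 6 in replicates 1 to 3. SCC25 +YBX1 had 8639 reads, a ratio of 1454 (exact 95% interval 705 to 3618). Both genes thus lay far below the other lines in SCC15, and between SCC25 and OKF6 the test called LAMA3 but not LAMB3.

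The integrin subunits that bind laminin-332 were also lowest in SCC15, while the order of OKF6 and SCC25 differed among them. ITGA6 encodes the α6 subunit of the hemidesmosomal integrin and lies on the forward strand of chromosome 2 from 172427354 to 172506459. ITGA6 was at 10.16, 9.76 and 10.12 log2 CPM in OKF6, 9.27, 8.86 and 9.31 in SCC25 +YBX1, and 3.28, 3.17 and 3.42 in SCC15 +YBX1. Replicates were close together in each group and the 3 groups did not overlap. ITGA6 changed by -5.85 from SCC25 to SCC15 (standard error 0.19, adjusted p = 2.11e-08, limma), and by -0.87 from OKF6 to SCC25 (standard error 0.19, adjusted p = 0.00642).

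ITGB4 encodes the β4 subunit, whose long cytoplasmic tail recruits plectin, and it pairs with α6 alone. It lies on chromosome 17 from 75721328 to 75757818, forward strand. ITGB4 was at 8.26, 8.86 and 8.88 log2 CPM in OKF6, 8.23, 7.56 and 7.86 in SCC25 +YBX1, and 2.32, 0.52 and 2.60 in SCC15 +YBX1. OKF6 and SCC25 came close without overlapping, and SCC15 was far below. ITGB4 changed by -6.07 from SCC25 to SCC15 (standard error 0.46, adjusted p = 2.36e-06, limma). From OKF6 to SCC25 it changed by -0.78 (standard error 0.46, adjusted p = 0.227). The standard error shares its spread with SCC15 +YBX1, where the SD was 1.13, against 0.35 in OKF6 and 0.34 in SCC25 +YBX1.

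ITGA3, on chromosome 17 from 50055968 to 50090481 (forward strand), encodes the α3 subunit of the focal contact integrin. Its log2 CPM was 8.56, 8.10 and 7.999 in OKF6 and 9.26, 9.16 and 9.04 in SCC25 +YBX1. It was 2.22, 2.62 and 3.40 in SCC15 +YBX1. ITGA3 was therefore the 1 gene of the 9 called higher in SCC25 than in OKF6, by 0.94 (standard error 0.28, adjusted p = 0.0297, limma), and no library of the groups overlapped. When each of the 6 libraries was left out in turn the call was lost 5 times, with changes of 0.83 to 0.99 and the adjusted p up to 0.0963, and it held without OKF6 replicate 1 (1.11, adjusted p = 0.0114). From SCC25 to SCC15 it changed by -6.41 (standard error 0.28, adjusted p = 9.06e-08).

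CD151 differed from the other 8 genes in how much RNA remained in SCC15. The gene lies on chromosome 11 from 832887 to 839831, forward strand. Log2 CPM was 6.94, 8.06 and 7.96 in OKF6, 7.93, 8.20 and 8.05 in SCC25 +YBX1, and 7.26, 6.90 and 7.22 in SCC15 +YBX1. SCC15 overlapped OKF6, whose replicate 1 was low, and lay below the range of SCC25. From SCC25 to SCC15 it changed by -0.94 (standard error 0.28, adjusted p = 0.0190, limma), and from OKF6 to SCC15 by -0.53 (adjusted p = 0.139), or -0.88 without OKF6 replicate 1 (adjusted p = 0.00101). The call against SCC25 was lost without SCC15 +YBX1 replicate 2 (adjusted p = 0.0735), SCC25 +YBX1 replicate 2 (0.0691) or replicate 3 (0.0537), and with the quantiles of all libraries set equal (-0.60, adjusted p = 0.148). The 95% interval of the change against SCC25 ran from -1.55 to -0.32.

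Collagen XVII, the product of COL17A1, spans the membrane and binds laminin-332 and integrin α6β4. The gene lies on the reverse strand of chromosome 10 from 104031286 to 104085880. COL17A1 was at 7.97, 9.65 and 9.28 log2 CPM in OKF6 and at 8.23, 8.03 and 7.95 in SCC25 +YBX1. The libraries of SCC15 +YBX1 held 0, 0 and 3 reads. Reads in SCC25 +YBX1 numbered 4106, a ratio of 1613 (exact 95% interval 551 to 7823). OKF6 replicate 1 overlapped SCC25, and the change from OKF6 to SCC25 was -0.90 (standard error 0.65, adjusted p = 0.331, limma). Here too the spread is shared with SCC15 +YBX1, where the SD was 1.51, against 0.88 in OKF6 and 0.14 in SCC25 +YBX1.

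The plakins DST and PLEC link the junction to keratin filaments, and both retained a clear though reduced signal in SCC15. DST, on chromosome 6 from 56457987 to 56954830 (reverse strand), encodes several large isoforms of which BP230 is the epithelial one, and the gene value sums them. DST was at 8.29, 8.91 and 7.96 log2 CPM in OKF6, at 6.67, 6.74 and 6.66 in SCC25 +YBX1, and at 3.99, 4.43 and 4.25 in SCC15 +YBX1. Each line formed a separate band. DST changed from OKF6 to SCC25 by -1.70 (standard error 0.24, adjusted p = 0.000541, limma) and from SCC25 to SCC15 by -2.47 (standard error 0.24, adjusted p = 1.28e-05). PLEC, the gene of plectin, was at 6.02, 8.69 and 8.65 log2 CPM in OKF6, where replicate 1 was far below the other libraries. It was at 6.58, 6.56 and 6.32 in SCC25 +YBX1 and at 2.77, 2.62 and 3.72 in SCC15 +YBX1. From SCC25 to SCC15 it changed by -3.45 (standard error 0.61, adjusted p = 0.000905). SCC25 differed from OKF6 by -1.30 (adjusted p = 0.130), and by -2.18 without OKF6 replicate 1 (adjusted p = 0.000305).

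Counted over the list, 9 of 9 genes were lower in SCC15 +YBX1 than in SCC25 +YBX1, where 23.6% of all 12995 genes were called lower and 43.6% called in either direction. The median log2 change was -6.07 over the 9 genes and -0.01 over all genes. Against OKF6, 8 of 9 were lower in SCC15 +YBX1 (23.4% of all genes called lower, 50.3% in either direction), with a median of -6.72 against 0.10. SCC25 +YBX1 and OKF6 differed in 4 of 9 genes, where 30.2% of all genes were called. LAMA3, ITGA6 and DST were lower in SCC25 (11.3% of all genes) and ITGA3 higher (18.9%), and the median was -0.87 against 0.13 over all genes. The +YBX1 libraries of SCC15 and SCC25 each served in more than 1 of these comparisons. The –YBX1 libraries gave a comparison of the lines whose means shared none of them. Its standard errors and p-values still drew on them, because the spread was estimated over all 12 libraries of both lines and arms. There, 9 of 9 genes were lower in SCC15 (29.1% of all genes called lower, 57.2% in either direction), with a median of -6.04 against 0.02 over all genes. LAMB3 was at -1.05, -2.05 and -2.16 log2 CPM in SCC15 –YBX1 and at 9.60, 8.64 and 9.53 in SCC25 –YBX1. CD151 changed by -0.95 there (standard error 0.24, adjusted p = 0.00416, limma), and was called whichever of the 6 libraries was left out.

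**Figure D2:**
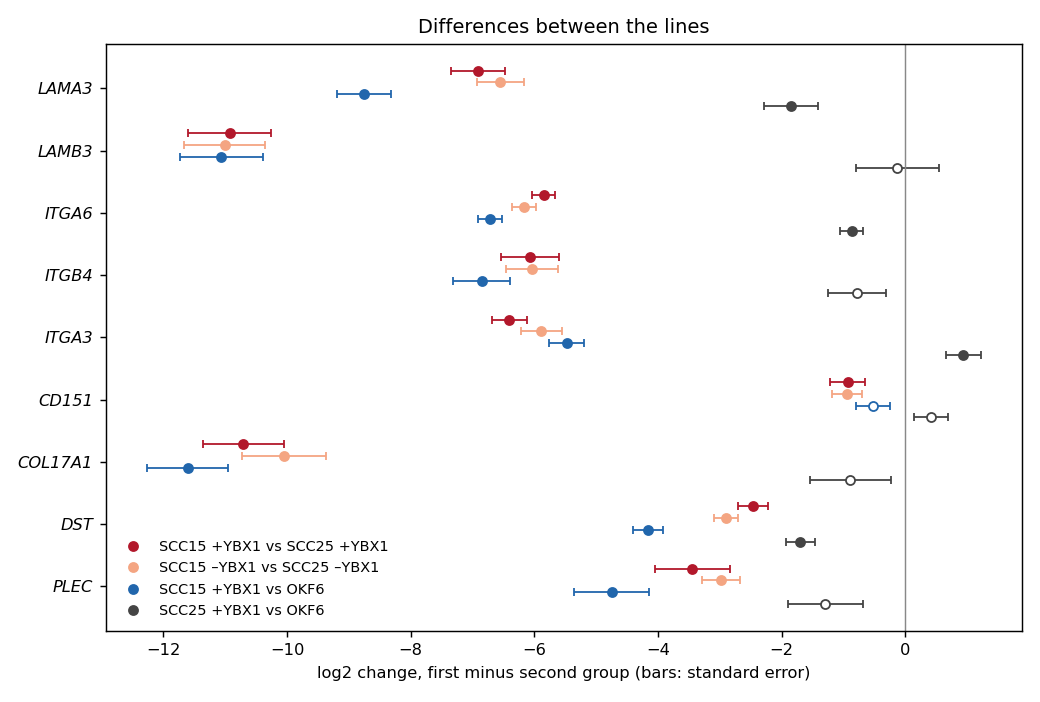
Log2 change of each gene (x axis, first minus second group, bars show the standard error) in 4 comparisons of the lines, with filled points at an adjusted p under 0.05 and open points above it. SCC15 lies far to the left for every gene but CD151, from -2.47 for DST to -10.93 for LAMB3 against SCC25 +YBX1, while SCC25 against OKF6 lies between -1.85 and 0.94.

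The few LAMB3 and COL17A1 reads of SCC15 differed in number between its libraries. In SCC15 +YBX1, LAMB3 (1, 0 and 6 reads in replicates 1 to 3) and COL17A1 (0, 0 and 3 reads) had most of their reads in replicate 3. In SCC15 –YBX1, LAMB3 had 3, 1 and 1 reads and COL17A1 3, 0 and 1. ITGA6 had 53, 53 and 69 reads in SCC15 +YBX1. Uneven reads were not limited to LAMB3 and COL17A1. Per library of SCC15 +YBX1, KRT5 had 2 to 53 reads and S100A2 5 to 57, whereas CAV2 had 36 to 45. The highest KRT5 and S100A2 counts were those of replicate 3. Replicate 3 also lay above its group mean for every gene of the main list. Its log2 CPM deviated by 1.81 for LAMB3, 1.75 for COL17A1 and 0.79 for ITGB4, but by 0.09 for CD151 and 0.03 for DST. The cause of this shared excess was not tested. Without SCC15 +YBX1 replicate 3, the change against SCC25 was -11.84 for LAMB3 and -11.58 for COL17A1.

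Knockdown of YBX1 was compared within each line, to see whether RNA of the same genes depended on it. In SCC25, 0 of 9 genes were called at an adjusted p under 0.05 and 0 of 9 had an unadjusted p under 0.05 (limma), where 0% and 3.09% of all genes did. In SCC15 the counts were again 0 of 9, where 0% of all genes were called and 2.32% had an unadjusted p under 0.05. With voom weights on recovered reads 0 of 9 were called in either line, as were 0 of all 12995 genes. LAMB3 and COL17A1 had 3 to 7 reads per group in SCC15, too few to measure a change there, so the 0 of 9 rests on the 7 other genes in that line. Over those 7 genes, each with more than 10 reads in every group, changes, –YBX1 minus +YBX1, lay between -0.37 and 0.17 in SCC25 and between -0.25 and 0.27 in SCC15. The medians were -0.14 and 0.07, against -0.02 and -0.01 over all genes.

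The intervals show what these libraries could have missed. In SCC25 the change of ITGA6 was 0.10 (95% interval -0.32 to 0.52) and that of DST 0.17 (-0.24 to 0.59). For ITGA3 it was -0.37 (-1.08 to 0.34), and for LAMB3 0.14 (-1.27 to 1.55). The LAMB3 interval takes its spread from SCC15 as well, where the gene had few reads. Its SD was 1.79 in SCC15 +YBX1, against 0.37 in SCC25 +YBX1 and 0.53 in SCC25 –YBX1. COL17A1 was lower in –YBX1 in all 3 same-numbered pairs of SCC25 (-0.48, -0.09 and -0.31) and its groups did not overlap, at 7.75, 7.94 and 7.64 log2 CPM in –YBX1 against 8.23, 8.03 and 7.95, as was true of 3.76% of all genes. Its mean change of -0.29 had a standard error of 0.68 in the fit with SCC15, where the gene had almost no reads, and of 0.14 with the SCC25 libraries alone (adjusted p = 0.999). LAMA3 was lower in –YBX1 in all 3 pairs of SCC25 as well (-0.19, -0.18 and -0.25), with overlapping groups. DST was lower in all 3 pairs of SCC15 (-0.33, -0.17 and -0.26), also with overlap. Every other gene had pairs of both signs, as did LAMA3 and COL17A1 in SCC15 and DST in SCC25. The share of all genes with 3 pairs of the same sign was not counted, so these pairs are not read as an effect of knockdown.

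The knockdown change differed between the lines in 0 of 9 genes and in 0% of all genes (0 of 9 at an unadjusted p under 0.05, 2.26% of all genes). Among the 7 genes with reads in SCC15, the difference of effects, SCC25 minus SCC15, lay between -0.52 for ITGA3 (95% interval -1.52 to 0.49) and 0.43 for DST (-0.15 to 1.01). SCC25 replicate 2 was the lowest of its group for LAMA3, LAMB3 and ITGA6 in both arms. Its log2 CPM deviated from the group mean by -0.60 and -0.58 for LAMA3 in +YBX1 and –YBX1, and by -0.41 and -0.61 for LAMB3. Replicate 2 was instead the highest of both SCC25 arms for DST (0.05 and 0.19) and CD151 (0.14 and 0.42). Its rank differed between the arms for ITGB4, ITGA3, COL17A1 and PLEC. With the replicate number as a block within each line 0 of 9 genes were called, as were 0 of all 12995 genes.

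**Figure D3:**
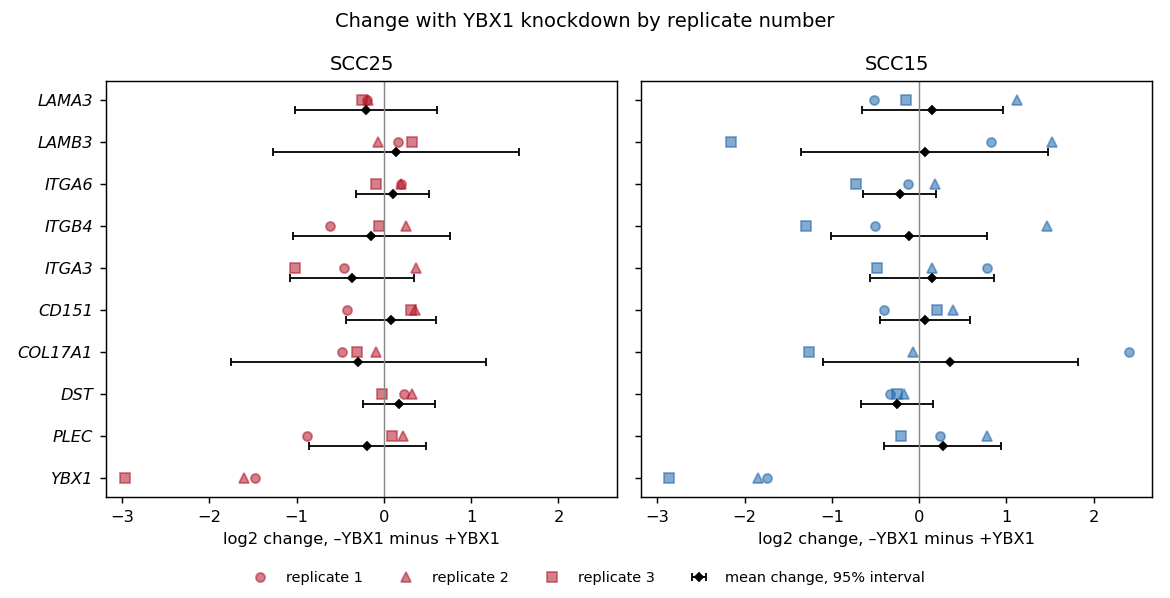
Log2 change with YBX1 knockdown (x axis, –YBX1 minus +YBX1) of each gene and of YBX1 in the 3 same-numbered pairs of SCC25 (left) and SCC15 (right), with the mean and its 95% interval in black for the 9 genes. The 9 genes scatter around 0 in both lines, whereas YBX1 lies between -1.48 and -2.96 in SCC25 and between -1.75 and -2.87 in SCC15.

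In the order of the 5 groups, –YBX1 and +YBX1 of a line were neighbours for every gene except LAMB3, where OKF6 lay between the SCC25 groups. The arms of a line overlapped in all cases but COL17A1 in SCC25. OKF6 overlapped the SCC25 group next to it for LAMB3, ITGA3, CD151, COL17A1 and PLEC, and did not for LAMA3, ITGA6, ITGB4 and DST. Between SCC25 +YBX1 and OKF6, 4 of the 9 genes were lower without overlap and 1 higher, where 43.3% of all genes had no overlap in either direction. SCC15 +YBX1 was lower without overlap in 9 of 9 genes against SCC25 +YBX1 and in 8 against OKF6. Of all genes, 66.6% and 54.4% had no overlap in either direction there. OKF6 was highest for ITGA6, ITGB4, LAMA3, COL17A1, DST and PLEC, and an SCC25 group for ITGA3, LAMB3 and CD151. Over the 15 libraries each gene correlated with the mean of the other 8 at a Pearson r of 0.934 or more, apart from CD151 at 0.697. Libraries of a line share its whole expression profile, so these values describe the contrast between SCC15 and the other lines. The 5 genes most like the mean of the 9, of 6457 ranked, were S100A14 (0.997), S100A16 (0.997), S100A2 (0.996), CAV1 (0.995) and CAV2 (0.994).

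The surroundings of these genes were described by 44 other basement membrane adhesion genes. Between SCC15 +YBX1 and SCC25 +YBX1, 27 of the 44 were lower in SCC15 and 7 higher, 77.3% called where 43.6% of all genes were, with a median of -2.33. Against OKF6, SCC15 had 29 lower and 6 higher (79.5% called, 50.3% of all genes), and SCC25 13 lower and 6 higher (43.2% called, 30.2% of all genes). Among the linkers, plakins and keratins, 6 of 7 were lower in SCC15 than in SCC25. KRT5 changed by -10.83 (standard error 0.82) and its partner KRT14 by -10.50 (standard error 0.60). Among the other laminin receptors 5 of 7 were lower, and SDC4, a syndecan, changed by -4.04 (standard error 0.26). Of the tetraspanins 3 of 4 were lower, and CD63, a tetraspanin of endosomes, changed by -0.90 (standard error 0.19, adjusted p = 0.00267, limma), about as much as CD151. In the group for processing and regulation 5 of 6 were lower, and EGFR, a growth factor receptor, changed by -4.22 (standard error 0.43).

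The laminins and the other basement membrane proteins were divided. Of 8 laminin genes outside the main list 1 was lower in SCC15 +YBX1 than in SCC25 +YBX1 and 3 higher, and between the –YBX1 arms 3 were lower and 3 higher. In the +YBX1 arms 50% of these laminins were called, near the 43.6% of all genes (23.6% lower, 20% higher). In the –YBX1 arms it was 75%, where 57.2% of all genes were called (29.1% lower, 28% higher). LAMA5, the gene of the α5 chain, was at 7.59 ± 0.17 log2 CPM in OKF6 (SD, n = 3), 5.80 ± 0.29 in SCC25 +YBX1 and 4.88 ± 0.90 in SCC15 +YBX1. It changed by -1.79 from OKF6 to SCC25 (standard error 0.38, adjusted p = 0.00511, limma), and its difference of SCC15 from SCC25 was -0.92 in the +YBX1 arms (adjusted p = 0.0712) and -0.96 in the –YBX1 arms (adjusted p = 0.0467). LAMB2, the gene of the β2 chain of other laminins, was higher in SCC15. It had 0 reads in every SCC25 library, 392 in SCC15 +YBX1 and 199 in OKF6, so that SCC15 was at least 111-fold and OKF6 at least 64.7-fold higher than SCC25 +YBX1, taking 3 reads over the group as the floor. Of the 12 other basement membrane and anchoring proteins 7 were lower in SCC15 +YBX1 than in SCC25 +YBX1 and 3 higher (83.3% called, 43.6% of all genes). COL4A1, a collagen IV chain, changed by -2.30 from SCC25 to SCC15 (standard error 0.27) and was higher in SCC25 than in OKF6 by 1.43 (standard error 0.27, adjusted p = 0.00272). NID1, which joins laminin to collagen IV, had 1 read in OKF6 and 397 in SCC25 +YBX1, a ratio of 407 (exact 95% interval 72.6 to 16111), and 625 in SCC15 +YBX1. With YBX1 knockdown 0 of 44 genes were called in either line (limma), and 1 of 44 had an unadjusted p under 0.05 in each, where 3.09% of all genes did in SCC25 and 2.32% in SCC15.

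**Figure D4:**
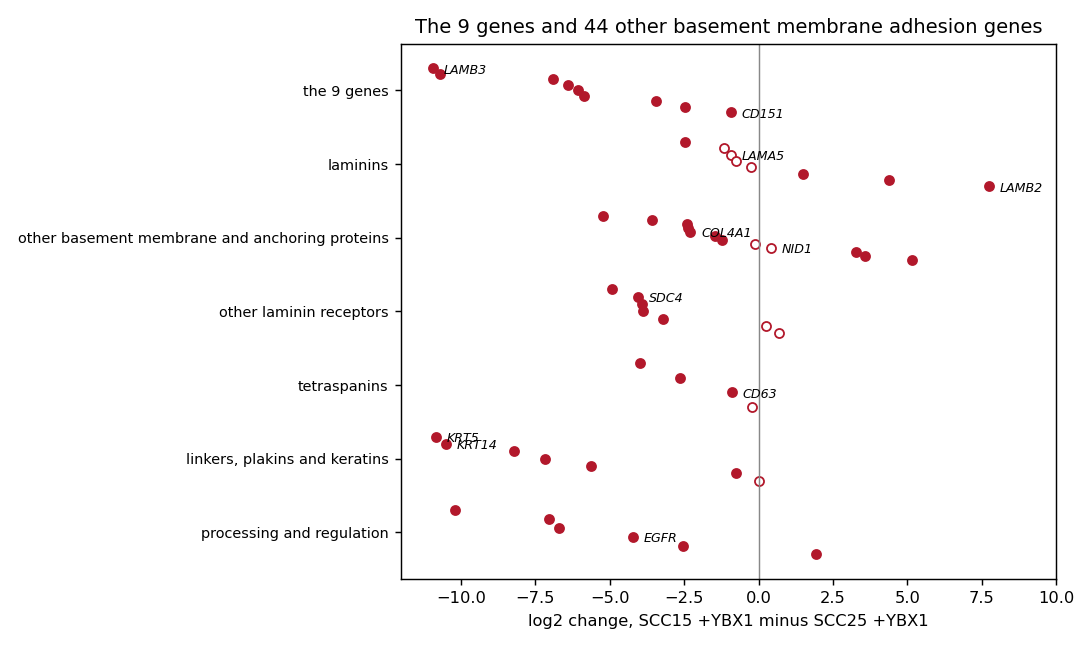
Log2 change between SCC15 +YBX1 and SCC25 +YBX1 (x axis) of the 9 genes and of the 44 others by group (y axis), with filled points at an adjusted p under 0.05. The 9 genes lie on the negative side, from -10.93 to -0.94, and the laminins run from -2.46 to positive values such as that of LAMB2, whose fitted change rests on 0 reads in SCC25.

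Some limits come from how 3′ reads map to these genes. The canonical transcript of each of the 9 genes was divided near its 3′ end into 86 pieces of 75 bases, of which 86 mapped to the gene itself and 0 equally well to another place. For DST this was a form of 104 exons and 24709 bases. The 3′ ends and last exons of other isoforms were not checked. The last exons of ITGA6, ITGB4 and CD151 overlap PDK1-AS1, GALK1 and POLR2L on the opposite strand, and whether counting used the strand is not given in the sources used here. Exons share bases in 1 of the 3 pairs, at 52 of the 2369 bases of the last exon of ITGA6, so reads of ITGA6 and PDK1-AS1 cannot be told apart there. The exons of ITGB4 and GALK1, and those of CD151 and POLR2L, share 0 bases.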

How the data were processed

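RNA of 15 libraries was analysed. Per the paper's methods and the labels, the authors used Cutadapt for trimming, HISAT2 for alignment to hg38, featureCounts for gene counts and limma for filtering and normalisation. They deposited 2 tables of log2 CPM (0.5 added to each read count, divided by the normalised library size), 1 for the cell lines (9 libraries) and 1 for YBX1 knockdown (12 libraries). Both hold the same 12995 genes, 12719 with a symbol, and the 6 shared libraries differ by at most 5e-08. The 9 genes are present because the filter kept them, and its effect could not be undone. Whole reads were recovered for 100% of values, with a tolerance of 0.01 relative to the count. Any value passes that tolerance at a large count, so the check bears on low counts only. Replicates differed by more than counting noise (chi-square per degree of freedom 3.99 to 80.8), so none was counted as a copy. Intervals on reads cover counting error only, without molecular identifiers.

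Tests on the deposited log2 values used limma 3.58.1 under R 4.3.3 (linear model, moderated by eBayes with a trend, two-sided, Benjamini-Hochberg over all genes, threshold 0.05), with all groups of a table in the fit. Simulated counts carrying known changes served to test the code. Samples were grouped by their labels. Within a line, the deviations of –YBX1 and +YBX1 libraries with the same number correlated (0.135, 0.470 and 0.425 in SCC25 and 0.498, 0.312 and 0.117 in SCC15, over 6497 genes). Libraries with the same number were therefore set side by side as pairs, although the labels state no pairing. Between lines the correlations ran from -0.20 to 0.26, a range that holds the lowest value of each line. Alternatives were the replicate block over a table, quantile normalization, equal library medians, a fit of the compared groups alone, log2(CPM + 1), robust empirical Bayes, no trend, a filter at the first quartile of expression, voom on recovered reads, a threshold of 0.01, and each library left out. The block within each line was added after seeing the data.

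Named are the 9 genes, YBX1, of the wider list the gene with the highest mean in each group and the 2 with the largest change in each comparison of lines, and the 5 genes most correlated with the mean of the 9. The genes overlapping last exons were named for that reason, and the mesenchymal markers after their values were seen. The genes and lists were chosen with earlier results of these data known. Of the 45 genes kept in the wider list 44 were in the tables, and 1 further gene is not reported here. Of the 4 fibroblast markers 1 was in the tables (LUM, at most 2.82 CPM), of the 3 leukocyte markers 1 (CD68, at most 51.2 CPM), and no endothelial marker was. Positions come from GENCODE on hg38, 3′ ends were mapped with minimap2 2.31, promoter windows are those of RefSeq (GRCh38.p14, 10053 genes), and figures were drawn with matplotlib 3.10.9.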

Additional observations from a re-analysis of the deposited data

How the results depend on the processing

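Apart from the settings that leave out a library, 579 of the 585 recomputed changes of the 9 genes kept their direction and their side of the threshold. The 3 that lost a call were CD151 between SCC15 and SCC25 with quantiles set equal (-0.60, adjusted p = 0.148) and ITGA3 between SCC25 and OKF6 with quantiles set equal (0.64, adjusted p = 0.121) or without a trend (adjusted p = 0.0657). The cause was not tested. The signs that turned belonged to uncalled changes, 0.12 for ITGB4 and -0.0268 for LAMB3 in the difference of the knockdown effects with quantiles set equal, and -0.0896 for LAMB3 with SCC15 knockdown on log2(CPM + 1). Setting library medians equal moved the median change of all genes by 0.15, 0.16 and 0.13 in the comparisons of SCC15 with SCC25 +YBX1, OKF6 and SCC25 –YBX1, and quantile normalization by 0.18 and 0.18 for SCC15 against SCC25 in the +YBX1 and –YBX1 arms and by -0.18 for SCC25 against OKF6. Of all genes, 2602 were higher and 3070 lower in SCC15 +YBX1 than in SCC25 +YBX1, against 3045 and 2685 with equal medians and 3430 and 2767 with equal quantiles. The number of the 9 genes called there was 9, 9 and 8. Of the wider list, 23 genes passed in SCC15 –YBX1 against SCC25 –YBX1 when only genes above the first quartile (31 of the list) were tested, against 36, and 10 in SCC25 against OKF6 at an adjusted p under 0.01, against 19.

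With the replicate number as a block, over a table or within each line, 0 of 9 genes and 0 of all 12995 were called with YBX1 knockdown. The block changed no other call of the 9 genes. COL17A1 in SCC25 kept a log2 change of -0.29 under both blocks (standard error 0.65 and 0.56). Leaving out 1 library gave 8 to 9 of 9 genes for SCC15 +YBX1 against SCC25 +YBX1 or OKF6, 9 for the –YBX1 arms, 3 to 5 for SCC25 against OKF6 and 0 with knockdown, and 12 to 19 genes of the wider list for SCC25 against OKF6, 12 without SCC25 +YBX1 replicate 3. Signs turned in changes that were not called. With knockdown in SCC25 these ranged from -0.13 to 0.40 for CD151, -0.74 to 0.0129 for ITGA3, -0.0402 to 0.20 for ITGA6, -0.30 to 0.0323 for ITGB4, -0.51 to 0.0825 for LAMA3, -0.0636 to 0.45 for LAMB3 and -0.43 to 0.11 for PLEC. In SCC15 they ranged from -0.0506 to 0.23 for CD151, -0.26 to 1.23 for COL17A1, -0.12 to 0.48 for ITGA3, -0.76 to 0.28 for ITGB4, -0.28 to 0.37 for LAMA3 and -0.82 to 0.97 for LAMB3. The difference of the effects ranged from -0.20 to 0.33 for CD151, -0.42 to 0.62 for ITGB4, -0.66 to 0.0698 for LAMA3 and -0.83 to 0.96 for LAMB3. LAMB3 in SCC25 against OKF6 ranged from -0.29 to 0.0731. Depth limits LAMB3 and COL17A1 in SCC15, where 3 to 7 reads per group leave their knockdown change unmeasured.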
